A study of Mus musculus with 16 samples.

Results

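CC chemokines are small secreted proteins that guide leukocytes, and 10 genes of this family were followed in mouse intervertebral discs: Ccl2, Ccl3, Ccl4, Ccl5, Ccl7, Ccl8, Ccl9, Ccl11, Ccl12 and Ccl20. They were chosen by gene name, and all 10 were found among the 49315 genes measured by bulk RNA sequencing. Each library held the RNA of 4 tail discs of 1 mouse. The mice were wild type or carried Adam8EQ, an altered form of the gene for the membrane-anchored protease ADAM8, and their discs were injured or left intact. There were 3 intact and 4 injured wild-type mice, and 4 intact and 5 injured Adam8EQ mice, called mutants below. The series title sets the mutant against DBA, an inbred mouse strain. What the EQ allele changes, how the discs were injured, the time after injury and the age of the mice are not given in the sources used here. Levels are TPM, which corrects for gene length and library size, and changes are given as differences between group means of log2(TPM + 1), which makes the changes of low genes look smaller.

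As background, CC chemokines bind receptors on leukocytes that are coupled to G proteins, and the cells then move up the chemokine gradient. Ccl2, Ccl7 and Ccl12 are monocyte chemoattractants that act on Ccr2, while Ccl3, Ccl5 and Ccl9 act on Ccr1. Transcription of several of these genes is raised by interleukin-1 and tumour necrosis factor through NF-kappaB and AP-1. The healthy disc has few blood vessels and few leukocytes, and disc cells themselves can make chemokines when exposed to such cytokines.

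On GRCm38, 9 of the 10 genes lie on chromosome 11 in a pair of groups. The first group holds Ccl2 (ENSMUSG00000035385, chr11:82035571-82037453), Ccl7 (ENSMUSG00000035373, chr11:82045712-82047525), Ccl11 (ENSMUSG00000020676, chr11:82057823-82062955), Ccl12 (ENSMUSG00000035352, chr11:82101845-82103400) and Ccl8 (ENSMUSG00000009185, chr11:82115185-82116799). These 5 genes span 81.2 kb and are all on the plus strand. The second holds Ccl5 (ENSMUSG00000035042, chr11:83525778-83530518), Ccl9 (ENSMUSG00000019122, chr11:83572919-83578636) and Ccl3 (ENSMUSG00000000982, chr11:83647844-83649355) on the minus strand and Ccl4 (ENSMUSG00000018930, chr11:83662584-83664683) on the plus strand. It spans 139 kb. Ccl20 (ENSMUSG00000026166, chr1:83116766-83119167, plus strand) stands alone on chromosome 1. All 10 are annotated as protein coding. The gene model Gm17268 overlaps Ccl2 on the other strand, with 0 shared exon bases.

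The promoters of Ccl3, Ccl8, Ccl9, Ccl12 and Ccl20 are shown because these are the members for which the promoter table gave a sequence. Each line gives the 100 bases before the start, 5′ to 3′ on the gene's strand (RefSeq, GRCm38.p6). Capitals mark matches to the TATA box letters (TATAA, same strand, in the 100 bases), the AP-1 motif (TGANTCA) and the NF-kappaB consensus. The last 2 motifs were searched on both strands over 250 bases.
Ccl3 (chr11:83649379-83649478, minus strand): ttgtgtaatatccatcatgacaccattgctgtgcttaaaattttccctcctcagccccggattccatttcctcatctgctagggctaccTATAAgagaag
Ccl8 (chr11:82115085-82115184, plus strand): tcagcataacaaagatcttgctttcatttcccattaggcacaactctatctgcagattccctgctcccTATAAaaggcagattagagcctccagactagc
Ccl9 (chr11:83578637-83578736, minus strand): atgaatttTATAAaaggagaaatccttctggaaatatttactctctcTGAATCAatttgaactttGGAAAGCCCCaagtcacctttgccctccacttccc
Ccl12 (chr11:82101745-82101844, plus strand): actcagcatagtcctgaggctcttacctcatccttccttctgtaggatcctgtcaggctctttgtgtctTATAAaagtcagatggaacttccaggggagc
Ccl20 (chr1:83116666-83116765, plus strand): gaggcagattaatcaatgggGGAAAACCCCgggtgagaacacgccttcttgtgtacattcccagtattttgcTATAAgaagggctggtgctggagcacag
The letters TATAA occur in all 5 windows, at 28, 31 and 32 bases before the start in Ccl20, Ccl12 and Ccl8, at 11 in Ccl3 and at 92 in Ccl9. The Ccl3 window begins at 83649379, while the gene position given above ends at 83649355. Its distance of 11 therefore counts from a start upstream of that position. TATAA occurs in 7.48% of 32851 promoter windows of the same length. The NF-kappaB consensus was found in Ccl9 and Ccl20, both on the opposite strand, and is present in 7.25% of all promoters. The AP-1 motif was found in Ccl9 and is present in 6.75%. A match describes the letters and is not evidence of binding.

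Depth was 10195832 to 24821842 implied reads per library, with a median of 13297311. On the first principal component of all genes (40.6% of the variance) intact libraries fell at -66.9 to -40.2 and injured mutants at 39.6 to 97.8. Injured wild-type mice 1 (-42.6) and 2 (-23.2) lay at or near the intact range, and mice 3 (84.9) and 4 (41.8) lay within the injured mutant range. This split recurs in most of the chemokine values below, which are therefore given mouse by mouse. Adam8 ranged from 0.956 to 2.97 TPM in intact discs and from 3.52 to 264.1 TPM in injured discs, so its level does not separate the genotypes and does not check the allele. Chondrocyte markers such as Acan and Col2a1 summed to 4876 TPM or more in every library. Notochordal markers summed to 2523 TPM or more in intact discs and to as little as 31.4 TPM in an injured mutant. Shh and Noto, of that list, stayed under 1 TPM in every library.

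Injury raised most of these chemokine transcripts in mutant discs, led by the monocyte chemoattractants Ccl2 and Ccl7, which went from a few TPM to a mean of about 201 and 222 TPM. Of the 9 genes that could be tested, 7 rose (Ccl2, Ccl3, Ccl4, Ccl7, Ccl8, Ccl9 and Ccl12) and 0 fell, at a limma adjusted p under 0.05. Over all tested genes the share called was 30.8%, and 13.1% rose. The median change of the 9 genes was 3.69, against -0.08 over all tested genes. The same comparison in the wild type called 0 of 9 genes with limma, where 0.116% of all genes were called. An unadjusted p under 0.05 was reached by 4 genes (Ccl2, Ccl7, Ccl9 and Ccl12), against 17.2% of all genes, and voom gave 0 adjusted calls. In mutants 8 genes had an unadjusted p under 0.05, against 42% of all genes. All 9 wild-type changes were positive, with a median of 2.19 against 0.01 over all tested genes. Ccl4 and Ccl12 reached 1 TPM in 6 injured libraries and in 0 intact ones, and Ccl8 in 7 injured and 1 intact, so these 3 genes, with fewer than 3 intact libraries at 1 TPM, met the filter only through their injured values. Of the other 6 tested genes 4 rose in mutants (Ccl2, Ccl3, Ccl7 and Ccl9).

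**Figure D1:**
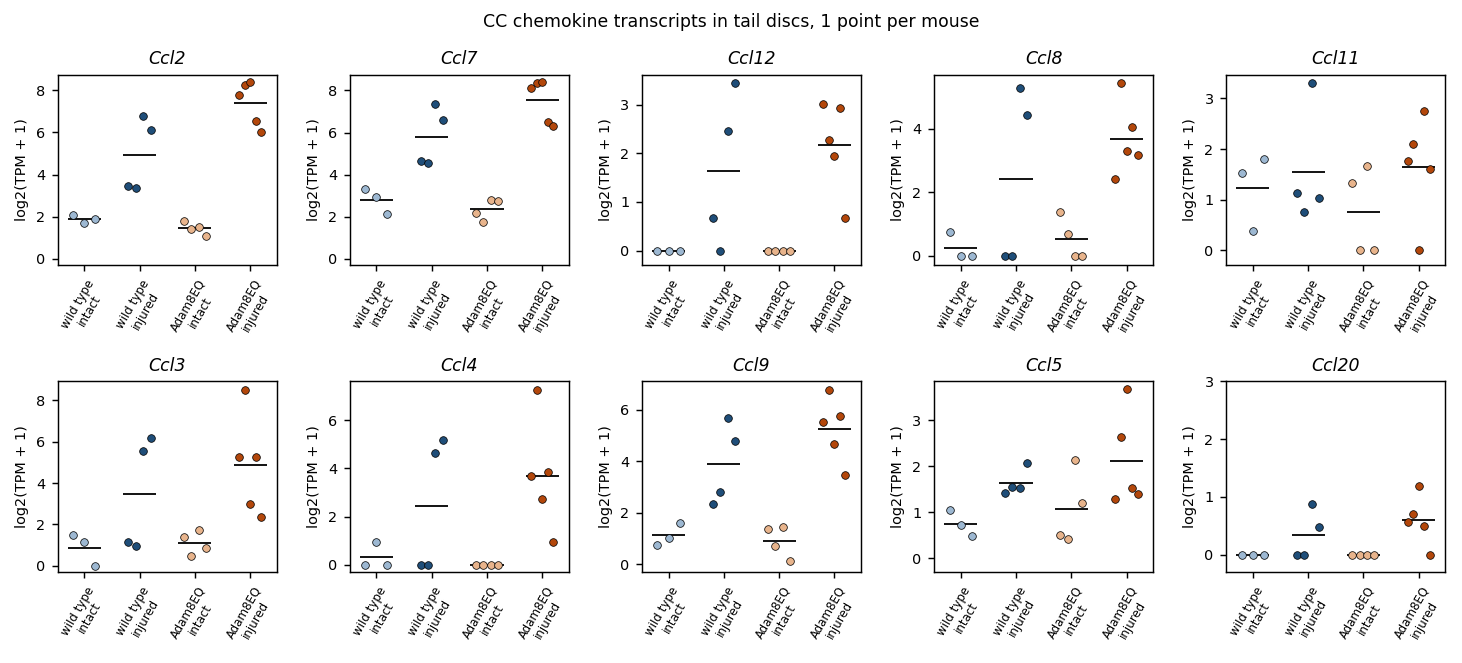
Level of each CC chemokine transcript as log2(TPM + 1) on the vertical axis, 1 point per mouse and a bar at the group mean, for the 4 groups on the horizontal axis. Ccl2 and Ccl7 lie higher in all 9 injured mice than in all 7 intact mice, and the injured wild-type points fall apart into a low and a high pair for most genes.

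Ccl2, the classical monocyte chemoattractant, was at 3.28, 2.21 and 2.73 TPM in intact wild-type mice 1 to 3 and at 2.49, 1.66, 1.82 and 1.09 TPM in intact mutants 1 to 4. Injured wild-type mice 1 to 4 gave 10.1, 9.11, 107 and 67.5 TPM. Injured mutants 1 to 5 gave 214, 306, 330.3, 90.7 and 64.2 TPM. Every injured library lay above every intact one, and wild-type mice 1 and 2 lay far below the other injured mice. The mean rose 114-fold in mutants, from 1.76 ± 0.576 to 201 ± 121 TPM (SD, n = 4 and 5), a change of 5.94 ± 0.73 (SE, limma adjusted p 0.0001976). Intact mutants held 4 to 7 implied reads of Ccl2, so the fold is imprecise. The wild-type mean went from 2.74 ± 0.536 to 48.6 ± 47.8 TPM (SD, n = 3 and 4). That change of 3.03 ± 0.83 (SE, limma adjusted p 0.1187) did not pass the threshold.

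Ccl7, its neighbour and a ligand of Ccr2 among other receptors, had the higher level of the pair at rest. It was at 8.90, 6.67 and 3.39 TPM in intact wild-type mice and at 3.54, 2.36, 5.90 and 5.80 TPM in intact mutants. After injury, wild-type mice gave 24, 22.2, 164 and 94.9 TPM, and mutants 273, 329, 342, 88.8 and 79.0 TPM. Injured and intact libraries did not overlap in either genotype. The mean rose 50.5-fold in mutants, with a change of 5.17 ± 0.67 (SE, limma adjusted p 0.0002331). Intact mutants held 6 to 16 implied reads of Ccl7. The wild-type change was 2.99 ± 0.76 (SE, limma adjusted p 0.1027).

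Ccl12, a mouse chemokine of the same subgroup, was listed at 0 in all 7 intact libraries. After injury it was at 0.596, 0, 4.49 and 9.89 TPM in the wild type and in mutants at 7.07, 3.83, 2.85, 6.65 and 0.584 TPM, on 0 to 22 implied reads. It therefore rose from a level of 0 in mutants (limma adjusted p 0.01453), and no fold is given. In the wild type 3 of 4 injured mice had reads (limma adjusted p 0.2506).

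Ccl8, the last gene of the first group, was at 0.664, 0 and 0 TPM in intact wild-type mice and at 1.58, 0.615, 0 and 0 TPM in intact mutants. Injured wild-type mice 1 and 2 were at 0 and mice 3 and 4 at 38.3 and 20.8 TPM. All 5 injured mutants had it, at 4.39, 42.6, 8.99, 15.7 and 7.97 TPM. The mutant change was 3.17 ± 1.08 (SE, limma adjusted p 0.02446) and the wild-type change 2.19 ± 1.23 (SE, limma adjusted p 0.3238). Injured mutants did not overlap intact mutants, whereas injured wild-type mice 1 and 2 were no higher than intact ones.

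Ccl11, the eosinophil chemoattractant eotaxin, differed from its neighbours. It was at 1.88, 0.290 and 2.51 TPM in intact wild-type mice and at 1.5, 0, 2.19 and 0 TPM in intact mutants. Levels after injury were 1.18, 0.684, 8.91 and 1.03 TPM in the wild type and in mutants 2.39, 3.26, 0, 5.77 and 2.03 TPM. All 4 groups overlapped, on 0 to 32 implied reads. Neither the change of 0.89 ± 0.67 in mutants (SE, adjusted p 0.2925) nor the wild-type change of 0.32 ± 0.76 (SE, adjusted p 0.8414) passed the threshold with limma.

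In the second chromosomal group, Ccl3, a ligand of Ccr1, was uneven between mice. Intact wild-type mice gave 1.77, 1.23 and 0 TPM and intact mutants 1.58, 0.410, 2.31 and 0.809 TPM. Injured wild-type mice gave 1.25, 0.967, 46.0 and 71.5 TPM. Injured mutants gave 37.2, 358, 6.79, 36.9 and 4.09 TPM. Wild-type mice 1 and 2 stayed within the intact range, and mutant 2 stood far above all other libraries. The mean rose 69.2-fold in mutants, with a change of 3.75 ± 1.35 (SE, limma adjusted p 0.0311), and the wild-type change was 2.59 ± 1.54 (SE, limma adjusted p 0.3459). Intact mutants held 1 to 6 implied reads of Ccl3.

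Ccl4, a macrophage inflammatory protein closely related to Ccl3, followed the same mice. It was listed at 0 in all intact libraries except wild-type mouse 2, at 0.952 TPM. Injured wild-type mice gave 0, 0, 23.7 and 35.1 TPM, and injured mutants 11.8, 151, 5.57, 13.5 and 0.950 TPM. It rose from a level of 0 in mutants (limma adjusted p 0.02954), and the wild-type change of 2.13 ± 1.49 (SE, limma adjusted p 0.4218) did not pass the threshold. Ccl3 was above Ccl4 in 15 of 16 libraries, and both were at 0 in the other.

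Ccl9, a ligand of Ccr1 found in rodents, was at 0.669, 1.03 and 2.04 TPM in intact wild-type mice and at 1.59, 0.620, 1.75 and 0.102 TPM in intact mutants. Injured wild-type mice gave 4.10, 5.96, 50.4 and 26.2 TPM and injured mutants 45.5, 108, 24.7, 52.7 and 10.1 TPM. Unlike Ccl3 and Ccl4, it was above the intact range in all 4 injured wild-type mice. The mean rose 47.5-fold in mutants, a change of 4.32 ± 0.76 (SE, limma adjusted p 0.0009098). Intact mutants held 1 to 18 implied reads of Ccl9. The wild-type change was 2.78 ± 0.86 (SE, limma adjusted p 0.1415).

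Ccl5, a chemoattractant of T cells and monocytes, moved least in this group. It was at 1.06, 0.655 and 0.404 TPM in intact wild-type mice and at 0.421, 0.328, 3.39 and 1.29 TPM in intact mutants. Injured wild-type mice gave 1.67, 1.93, 1.88 and 3.20 TPM, all above the intact wild type, and injured mutants 1.44, 5.21, 11.8, 1.86 and 1.63 TPM, which overlapped intact mutants. The wild-type values rest on 1 to 3 implied reads in intact mice and 5 to 11 in injured mice. The mutant change was 1.04 ± 0.50 (SE, limma adjusted p 0.1052) and the wild-type change 0.89 ± 0.57 (SE, limma adjusted p 0.3951). Without intact mutant 3, the highest of its group, the mutant change passed (limma adjusted p 0.04035).

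Ccl20, the ligand of Ccr6, reached 1 TPM in 1 library and was not tested. It was listed at 0 in all 7 intact libraries. Injured discs gave 0, 0, 0.848 and 0.393 TPM in the wild type and in mutants 0.486, 0.621, 1.29, 0.419 and 0 TPM, at most 6 implied reads. With no filter on low values, its adjusted p was 0.05907 in mutants and 0.5406 in the wild type.

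Groups did not overlap for 7 genes in mutants (Ccl2, Ccl3, Ccl4, Ccl7, Ccl8, Ccl9 and Ccl12), against 12% of all tested genes that lay wholly higher after injury. In the wild type this held for 4 genes (Ccl2, Ccl5, Ccl7 and Ccl9), against 9.22% of all tested genes. Of the 7 genes in mutants, Ccl4, Ccl8 and Ccl12 met the filter only through their injured values. The lowest injured mutant held 2 implied reads of Ccl4 and 1 of Ccl12. The 7 mutant calls were not equally firm. Ccl2, Ccl7, Ccl9 and Ccl12 kept theirs when any 1 mouse was left out. Ccl3 lost its call in 6 of 16 such fits (without intact mutants 1, 2 or 4 or injured mutants 1, 2 or 4), with adjusted p up to 0.07775. Ccl4 also lost its call in 6 (without any 1 intact mutant, or injured mutants 1 or 2), with adjusted p up to 0.06301. Ccl8 lost its call in 4 (without intact mutants 2, 3 or 4 or injured mutant 2), with adjusted p up to 0.06233. The count fell to 4 without intact mutant 2, intact mutant 4 or injured mutant 2. Voom on implied reads called 5 genes, without Ccl3 (adjusted p 0.1401) and Ccl4 (adjusted p 0.06032). Leaving out injured wild-type mouse 1 gave 3 calls for injury in the wild type, Ccl2 (limma adjusted p 0.03905), Ccl7 (0.03886) and Ccl9 (0.04633). Calls over all genes in that comparison ran from 2 to 452 when each mouse was left out, against 28 in the main fit.

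Library names began with A8 in intact and injured mutants 1 and 2, with M in the other mutants and with D in every wild-type library, so the naming cannot be told apart from genotype there. Within mutants the Ccl2 change was 6.40 among A8 names and 5.69 among M names, and the Ccl7 change 6.27 and 4.30. The Ccl9 change was 5.12 and 3.84, and that of Ccl3 was 5.94 and 2.23. Ccl8 gave 2.91 and 3.52. All were positive in both sets of names. With A8 names alone 3 genes were called (Ccl2, Ccl7 and Ccl9), and with M names alone 2 (Ccl2 and Ccl7). Calls over all genes for injury in mutants ran from 725 to 8559 over the alternatives that kept every mouse or chose by name. The main fit called 7438.

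**Figure D2:**
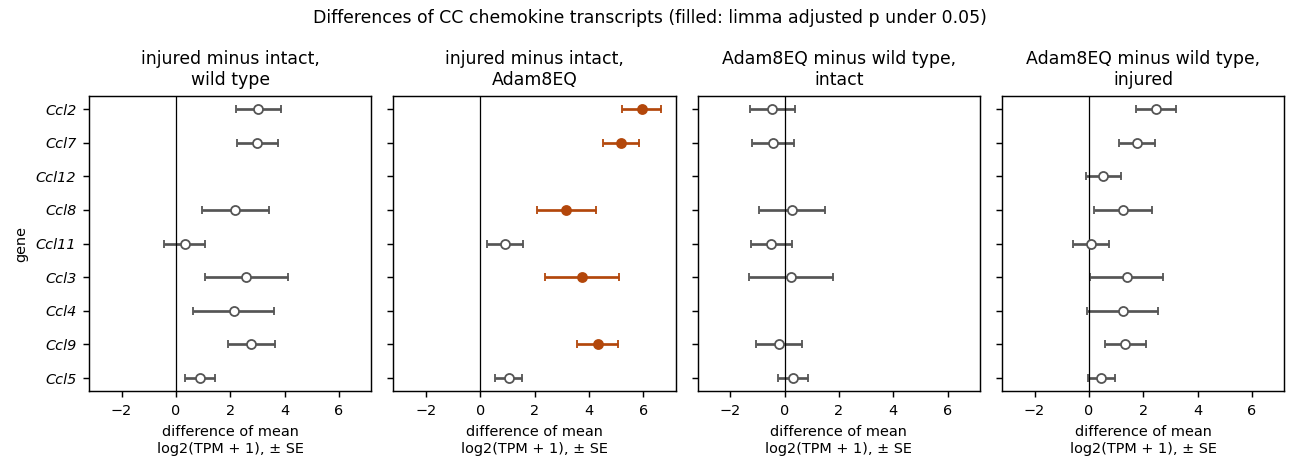
Difference of mean log2(TPM + 1) for each tested gene with its SE on the horizontal axis, in 4 comparisons side by side, filled where the limma adjusted p is under 0.05. Filled points occur for injury in Adam8EQ mice alone, and points are left out where the reference group is listed at 0 throughout (Ccl12 in 3 comparisons, Ccl4 for injury in mutants and for genotype in intact discs).

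Whether Adam8EQ changed these levels was compared in intact and in injured discs. In intact discs limma called 0 of 9 genes (0.0165% of all genes), 0 had an unadjusted p under 0.05 (3.78% of all genes) and voom called 0. Apart from Ccl4 and Ccl12, at or near 0, the changes ran from -0.49 for Ccl11 to 0.31 for Ccl5, each with a limma adjusted p of 1. All 9 changes of mean log2(TPM + 1) in injured discs were positive, with a median of 1.25 against -0.09 over all tested genes. The ratio of mean TPM, mutant over wild type, was 0.912 for Ccl11, 1.08 for Ccl8 and 1.12 for Ccl12. For the other tested genes it ran from 2.02 (Ccl5) to 4.14 (Ccl2). No member passed the threshold with limma or voom, where limma called 0.918% of all genes. Ccl2 and Ccl7 (2 genes) had an unadjusted p under 0.05, against 20.3% of all genes. The sign for Ccl11 turned with a pseudocount of 0.1 (-0.16) and with voom (-0.12).

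The largest of these differences was that of Ccl2, 2.47 ± 0.73 (SE, limma unadjusted p 0.002053, adjusted p 0.07735), with a mean 4.14-fold higher in injured mutants. Ccl7 differed by 1.76 ± 0.67 (SE, limma adjusted p 0.1299) and its mean was 2.91-fold higher. The ranges of the injured groups overlapped for both. Mutants lay wholly above the wild type for 0 of the 10 genes, against 0.905% of all tested genes, and in intact discs also for 0, against 2.77%. Smaller differences were 1.39 ± 1.35 for Ccl3, 1.34 ± 0.76 for Ccl9 and 1.25 ± 1.08 for Ccl8 (SE, limma adjusted p 0.5494, 0.2883 and 0.4979). Those of Ccl4, Ccl12, Ccl5 and Ccl11 were 1.24 ± 1.31, 0.52 ± 0.65, 0.46 ± 0.50 and 0.09 ± 0.67 (SE).

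Single mice and sample weights changed these calls. Without injured wild-type mouse 3 both Ccl2 (3.08, limma adjusted p 0.01312) and Ccl7 (2.29, limma adjusted p 0.02932) were called. With sample weights Ccl2 was called (limma adjusted p 0.04224). Calls over all genes also varied in this comparison, from 7 to 2253 when each mouse was left out. Under the other alternatives they ran from 2 to 1070, against 222 in the main fit. Among A8 names the Ccl2 difference from the injured wild type was 3.09 and among M names 2.05, and that of Ccl7 was 2.45 and 1.30.

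Whether injury acted differently in the genotypes was tested directly as the difference between their injury changes. Limma called 0 of 9 genes, as it did 0 of all 24188, and voom called 0. At an unadjusted p under 0.05 the count was again 2, Ccl2 and Ccl7, against 8.18% of all genes. The extra rise in mutants was 2.92 ± 1.11 for Ccl2 (SE, limma adjusted p 0.5066) and 2.18 ± 1.01 for Ccl7 (SE, limma adjusted p 0.5653). That 7 genes passed in mutants and 0 in the wild type is therefore not a difference shown between the genotypes.

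Summed over the 10 genes, intact discs held 11.1 to 18.2 TPM in the wild type and 5.99 to 17.4 TPM in mutants. Injured wild-type mice 1 to 4 held 42.9, 40.8, 446 and 330.6 TPM. Injured mutants 1 to 5 held 596, 1308, 734, 313 and 171 TPM. Even the lowest injured library was above all intact ones, and mutants 1, 2 and 3 were above every wild-type mouse.

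Ccl7 was the highest of the 10 genes in 14 libraries, Ccl3 in injured mutant 2 and Ccl2 in injured mutant 4. Ccl2 and Ccl7 together made up 55.3% to 68.1% of the sum in intact wild-type discs and 44.5% to 75.8% in intact mutants. After injury the share was 49.1% to 79.5% in the wild type, and 81.5%, 48.6%, 91.6%, 57.3% and 84.0% in mutants 1 to 5. Mutants 2 and 4 had the lowest such shares and the highest shares of Ccl3 plus Ccl4, 38.9% and 16.1%, against 8.21%, 1.68% and 2.96% in mutants 1, 3 and 5.

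The ratio of Ccl7 to Ccl2 was 2.37, 2.44, 1.53 and 1.41 in injured wild-type mice and 1.28, 1.08, 1.04, 0.979 and 1.23 in injured mutants. The groups did not overlap, but the ratio was chosen after its values were seen and was not tested. In intact discs it ranged from 1.24 to 3.02 in the wild type and from 1.42 to 5.33 in mutants.

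**Figure D3:**
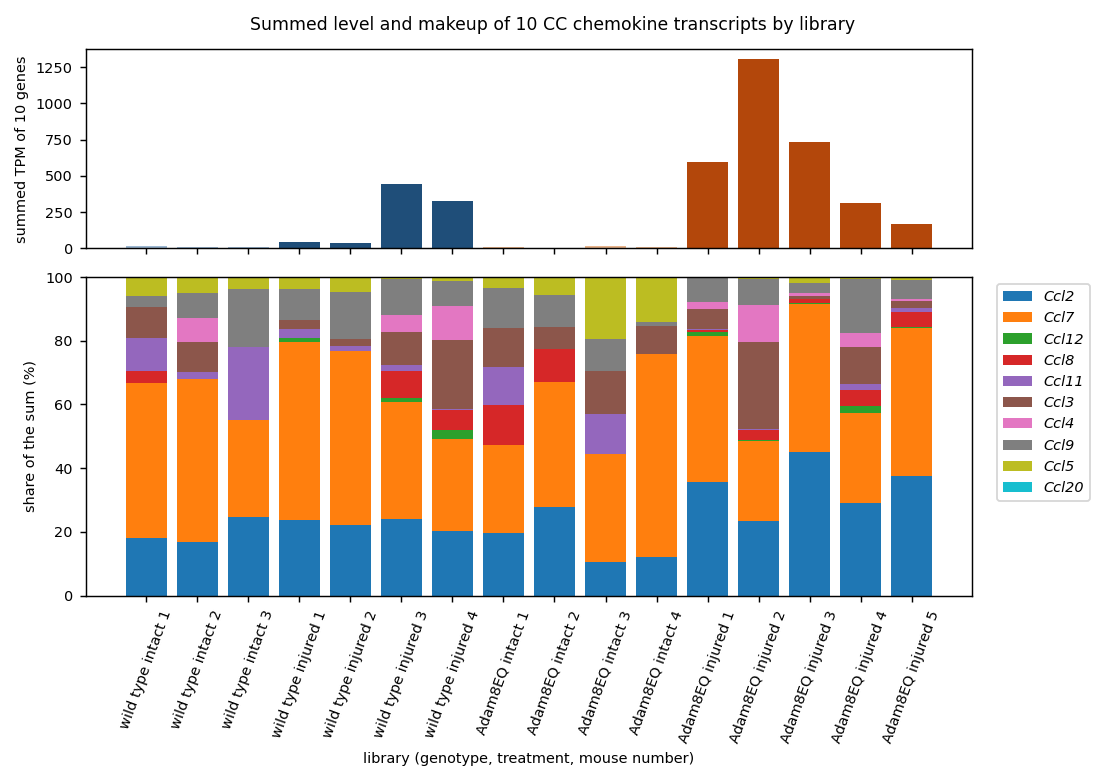
Upper panel, TPM summed over the 10 genes for each library, and lower panel, the share of each gene in that sum in percent, with libraries on the horizontal axis. Injured mutant 2 has the highest sum (1308 TPM) and a Ccl3 plus Ccl4 share of 38.9%, while Ccl2 and Ccl7 make up 91.6% in injured mutant 3.

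In each group Ccl7 had the highest mean and Ccl2 the next. In injured mutants their means of 222 ± 129 and 201 ± 121 TPM (SD, n = 5) were closer than their spread. They were followed by Ccl3, Ccl9, Ccl4 and Ccl8, at 88.5, 48.2, 36.6 and 15.9 TPM, and then by Ccl5, Ccl12, Ccl11 and Ccl20, at 4.39, 4.20, 2.69 and 0.564 TPM. The ranges of Ccl3, Ccl9, Ccl4 and Ccl8 overlapped, as did those of Ccl5, Ccl12 and Ccl11. The order in the injured wild type was Ccl7, Ccl2, Ccl3, Ccl9, Ccl8, Ccl4, Ccl12, Ccl11, Ccl5 and Ccl20.

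Of 14 other CC ligands, 6 were tested and 2 rose in injured mutants, where 13.1% of all genes rose. Ccl6, a close relative and chromosomal neighbour of Ccl9, was at 1.23 to 4.96 TPM in intact mutants and at 98.3, 309.1, 86.8, 147 and 26.4 TPM in injured mutants 1 to 5. Its change was 4.75 ± 0.85 (SE, limma adjusted p 0.0009817). Ccl17, a ligand of Ccr4, rose by 2.43 ± 0.71 (SE, limma adjusted p 0.01262). It met the filter only through injured libraries. Its highest values, 22.6 and 16.8 TPM, were in injured mutants 3 and 4 rather than in mutant 2. The other 4 (Ccl22, Ccl25, Ccl27a and Ccl28) did not pass, with changes from -0.44 to 0.59.

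Receptors were called as well. Of 10 CC receptors 5 were tested, of which 2 rose and 1 fell in injured mutants (13.1% and 17.7% of all genes) and 0 were called in the wild type, with no call by genotype. Both that rose, Ccr1 and Ccr2, met the filter only through injured libraries. Ccr1 was at 0.109 to 1.57 TPM in intact mutants and at 49.3, 113, 24.5, 39.8 and 11.5 TPM in injured mutants, a change of 4.38 ± 0.70 (SE, limma adjusted p 0.0006454). The injured wild type gave 4.52, 6.01, 40 and 28 TPM of it. Mutant 2 was the highest and mutant 5 the lowest injured mutant for Ccr1, as for Ccl9.

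Ccr2, the receptor of Ccl2, Ccl7 and Ccl12, rose by 3.95 ± 0.60 in mutants (SE, limma adjusted p 0.0004823), to 23.6, 48.3, 20.9, 54.9 and 17.2 TPM. Its wild-type change of 3.42 ± 0.68 (SE, limma adjusted p 0.05385) missed the threshold narrowly, with injured values of 3.93, 15.0, 53.2 and 22.9 TPM. Ccr3, the eotaxin receptor, did not exceed 0.539 TPM in any library and Ccr8 did not exceed 0.534 TPM. Ccr6 was at most 2.23 TPM.

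Ccr10, a receptor of Ccl27a and Ccl28, fell in injured mutants by 1.70 ± 0.32 on the log2 scale (SE, limma adjusted p 0.001704). It went from 3.98, 11.5, 9.93 and 11.7 TPM in intact mutants to 1.10, 2.05, 1.06, 3.45 and 2.91 TPM after injury. Of 4 atypical receptors 2 rose in mutants (13.1% of all genes) and 0 in the wild type. Ackr2, a scavenger that takes up inflammatory CC chemokines, rose by 1.51 ± 0.57 (SE, limma adjusted p 0.03933), with 54.1, 25.8, 163, 114 and 147 TPM in injured mutants. Intact mutants 1 to 4 gave 38.7, 17.7, 51.1 and 18.5 TPM of it, which overlapped the injured ones. Injured mutants 1 and 2, with A8 names, lay below mutants 3, 4 and 5, with M names. Mutant 2, with the highest chemokine sum, had the lowest Ackr2 level of the injured mutants. A link between Ackr2 and the chemokine levels was not tested. Ccrl2, which binds the attractant chemerin and met the filter only through injured libraries, rose by 2.24 ± 0.80 (SE, limma adjusted p 0.03167).

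**Figure D4:**
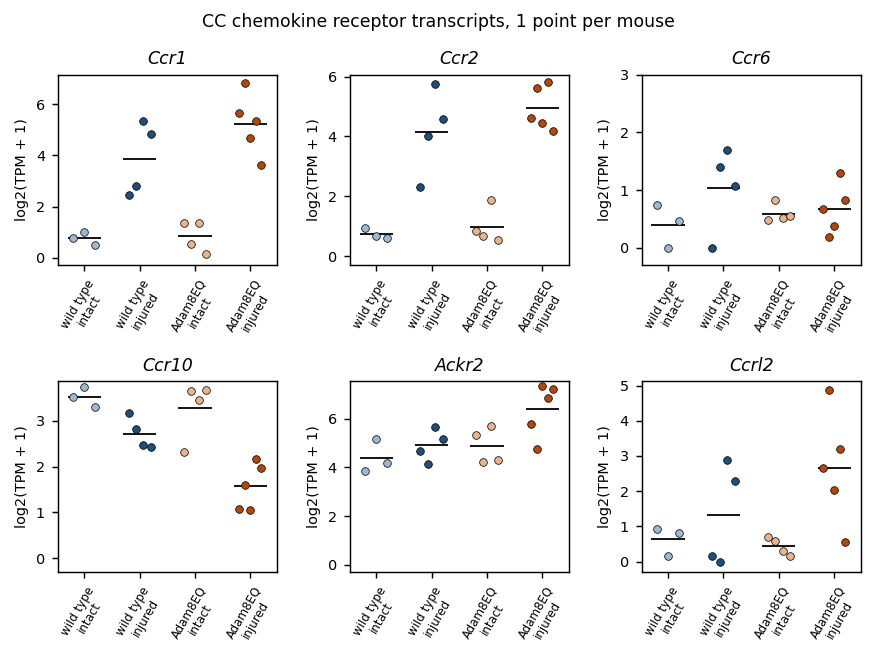
Level of 6 receptor transcripts as log2(TPM + 1) on the vertical axis, 1 point per mouse and a bar at the group mean, by group. Ccr1 and Ccr2 are higher in all injured mice than in the intact mice of the same genotype, and Ccr10 is lower in all 5 injured mutants than in intact mutants.

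Inducing cytokines, AP-1 and NF-kappaB subunits and regulators of NF-kappaB were taken as a list of 16 genes. Nfkbia, Nfkbib and Tnfaip3, of this list, are inhibitors of NF-kappaB signalling and not inducers. In injured mutants 11 rose, Nfkbia and Tnfaip3 among them, and 0 fell, where 13.1% of all genes rose and 17.7% fell. In the wild type 0 were called (0.116% of all genes), and by genotype 0 in intact discs (0.0165%) and 0 in injured discs (0.918%). The median mutant change was 1.31, against -0.08 over all tested genes. Tnf, which encodes tumour necrosis factor and alone of the 16 met the filter only through injured libraries, rose by 2.84 ± 0.74 (SE, limma adjusted p 0.006932), to 10.3, 44.0, 18.1, 10.9 and 2.49 TPM. Il1b, which encodes interleukin-1 beta, rose by 3.30 ± 1.08 (SE, limma adjusted p 0.02024), to 24.8, 311, 19.7, 32.5 and 2.96 TPM. Both were highest in mutant 2 and lowest in mutant 5.

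Fosl1, an AP-1 subunit, rose by 4.34 ± 0.81 (SE, limma adjusted p 0.001181) and Nfkbiz, a nuclear regulator of NF-kappaB targets, by 2.13 ± 0.38 (SE, limma adjusted p 0.0009661). Il1a, Rela, Nfkbib, Jun and Fos did not pass, with changes of 0.31, 0.31, 0.35, -0.16 and 0.20. Of 5 genes that set the stability of inflammatory mRNA, 2 rose and 1 fell in mutants, against 13.1% and 17.7% of all genes. Zc3h12a, which encodes a nuclease that degrades cytokine mRNA, rose by 2.27 ± 0.51 (SE, limma adjusted p 0.003017) and Zfp36l1 by 0.72 ± 0.27 (SE, limma adjusted p 0.04164). Zfp36l2 fell by 0.91 on the log2 scale (SE 0.25, limma adjusted p 0.008852), and 0 of the 5 were called in the wild type.

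Monocyte and macrophage marker sums were higher in every injured library than in any intact one. Neutrophil marker sums of injured wild-type mice 1 and 2 and injured mutant 5 did not exceed the highest intact sum. The 12 monocyte and macrophage markers summed to 162 to 266 TPM in intact discs of either genotype. After injury they summed to 277, 437, 4052 and 2642 TPM in the wild type and to 2206, 8341, 1419, 2788 and 896 TPM in mutants, where 10 of 12 rose and 0 fell (13.1% and 17.7% of all genes). Itgam, Ly6c2 and Fcgr1 met the filter only through injured libraries, and of the other 9 markers 8 rose. The 11 neutrophil markers summed to 6.53 to 19.8 TPM in intact discs, to 11.5, 12.8, 191 and 144 TPM in the injured wild type and to 88.0, 1023, 45.6, 92.4 and 19.1 TPM in injured mutants. Of these, Ly6g and Mpo were at 0 in all intact libraries, Mpo in the injured wild type and Elane in injured mutants. In mutants 4 of 9 tested rose and 0 fell (13.1% and 17.7% of all genes). Those 4 met the filter only through injured libraries. Of the 4 markers that met it through intact libraries (Elane, Retnlg, Ngp and Camp) 0 were called. The changes of Elane and Camp were negative.

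Injured wild-type mice 1 and 2 were low and mutant 2 was highest for both lists, as for Ccl3 and Ccl4. Ccl2 and Ccl7 did not follow that order: mutant 3, with the highest Ccl2 and Ccl7 of all mice, had the second lowest sums of both lists among injured mutants. Wild-type mice 1 and 2, whose neutrophil sums lay below the intact wild-type range and whose monocyte and macrophage sums lay above every intact library, had Ccl2 and Ccl7 above every intact mouse. T and NK cell markers summed to 0.600 to 12.3 TPM over all libraries, with Cd3d and Cd3e at 0 in intact discs, and 0 of 2 tested were called. B cell markers summed to at most 6.28 TPM, eosinophil markers (0 tested) to at most 1.52 TPM and mast cell markers to at most 41.2 TPM (injured wild-type mouse 3), with 0 called in any of these lists.

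Markers of resident and vessel cells were also compared. Fibroblast markers summed to 2154 to 4561 TPM in intact discs. After injury they summed to 3514 to 12798 TPM in the wild type and to 6557 to 10737 TPM in mutants. In mutants 3 of 6 rose (Dcn, Lum and Pdgfra) and 0 fell, against 13.1% and 17.7% of all genes. Col1a1, Col1a2 and Thy1 were not called, and the change of Col1a2 was negative. Endothelial markers summed to at most 15.4 TPM in intact discs, to 6.22 to 173 TPM in the injured wild type and to 9.38 to 61.7 TPM in injured mutants, with 0 of 5 called. Red blood cell markers summed to 68.1 to 728 TPM in intact and 113 to 1473 TPM in injured discs, and skeletal muscle markers to 112 to 737 and 18.4 to 570.2 TPM, with 0 called in either list. The part of all these cells in the chemokine changes was not tested. In such bulk samples a gain in cells of a type and a gain in RNA per cell cannot be told apart.

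**Figure D5:**
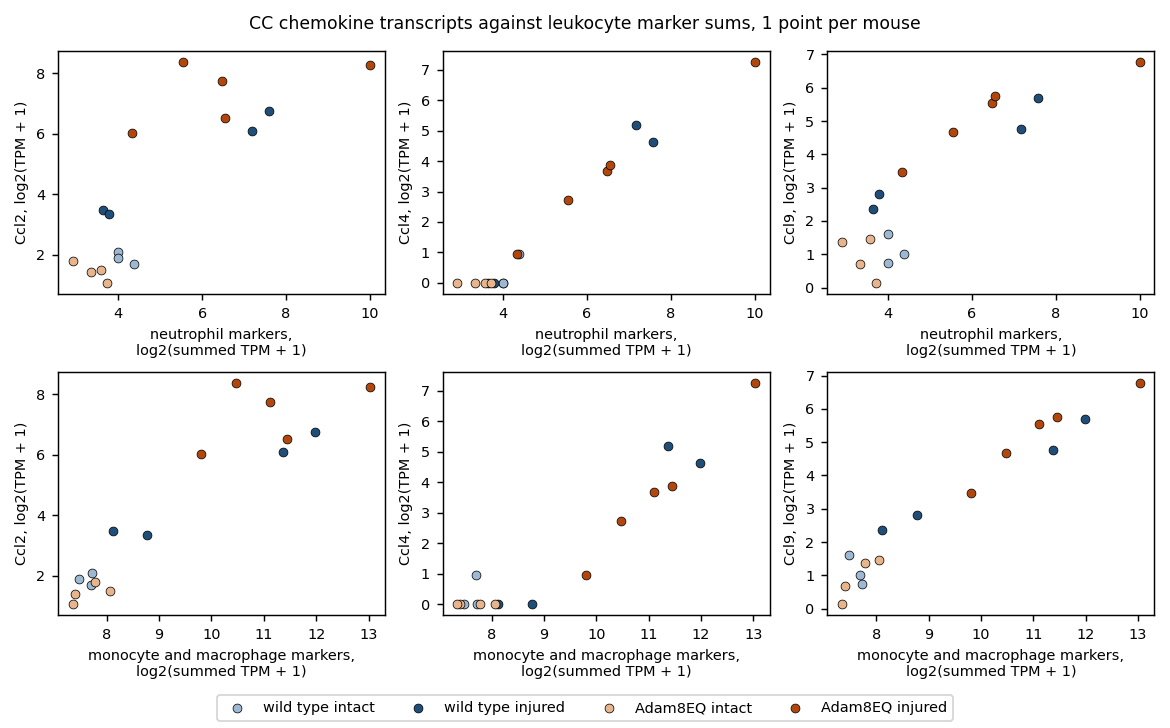
Ccl2, Ccl4 and Ccl9 as log2(TPM + 1) on the vertical axes against the summed TPM of neutrophil markers (upper row) and of monocyte and macrophage markers (lower row), as log2(sum + 1), 1 point per mouse. Ccl4 and Ccl9 peak in the injured mutant with the highest marker sums (1023 and 8341 TPM), whereas Ccl2 is as high in injured mutant 3 at sums of 45.6 and 1419 TPM.

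Outside the 10 genes, the transcript closest in profile to each was found among 14664 candidates by the root-mean-square difference of centred log2(TPM + 1) over all 16 libraries. Ccl9 was closest to Ccr1, its own receptor, with a difference of 0.30. Ccl3 and Ccl4 were both closest to Acod1, which encodes the itaconate-producing enzyme of activated macrophages, at 0.41 and 0.31. Ccl2 was closest to the acute-phase gene Saa2 (0.58) and Ccl7 to Slpi (0.50), a secreted inhibitor of neutrophil proteases. Ccl12 was closest to Nlrc5 (0.40), a regulator of MHC class I genes, and Ccl8 to Hk3 (0.65), a hexokinase of myeloid cells. The low genes Ccl5 and Ccl11 were closest to Fth1 (0.51) and Psme2b (0.56). These are descriptions of 16 libraries that share their injury groups, and carry no test.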

How the data were processed

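RNA was extracted from 4 tail discs per mouse and depleted of ribosomal RNA before library preparation, per the labels' protocols. The molecule label instead reads polyA RNA, so the labels disagree on the library type. The authors deposited 1 table of TPM values, transcript levels corrected for gene length and scaled to 1 total per library, for the 16 libraries. The submitters' processing notes name bcl2fastq 2.20 and the build GRCm38. The aligner, the counting, its use of strand and the annotation are not given in the sources used here. Groups and mouse numbers came from the titles, and table columns were matched to mice by the library names in the descriptions.

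Log2(TPM + 1) was fitted with limma 3.58.1 (R 4.3.3) with a mean per group and eBayes moderation along a trend. The fit covered the 24188 genes that reached 1 TPM in 3 or more libraries. P-values were adjusted by Benjamini-Hochberg over these genes for each comparison, with a threshold of 0.05, and SE is the ordinary standard error of the fit. The code was also tested on simulated data.

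Exon lengths and positions came from GENCODE release M21 (GRCm38), with 99.5% of identifiers matched. TPM times exon length gave whole multiples of 1 read for 94.1% to 95.0% of the low values in a library (under 20 implied reads, tolerance 0.05). Implied reads are therefore approximations computed here. RefSeq promoters (GRCm38.p6) were found for 5 of the 10 genes.

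The 10 genes, the other lists and the tests were chosen with earlier results of these data known. All 10 genes are named. Genes of the other lists could be named whatever their result, and those not named are covered by the list counts. A gene of these lists is not reported here. Also named is, for each tested member, the gene outside the 10 with the smallest root-mean-square difference over the 16 libraries. Candidates for this were genes with a symbol and a mean of at least 1 TPM, on log2(TPM + 1) centred per gene. The alternatives tried were a pseudocount of 0.1, other filters, scalings and variance models, sample weights, smaller sets of libraries, the library naming, a replicate block and leaving out each mouse. A fit with limma's voom on implied reads was added after seeing the data.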

Additional observations from a re-analysis of the deposited data

Results flagged for a closer look

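One value stood far from the others of its group. Ccl11 was at 8.91 TPM in injured wild-type mouse 3, while the other 3 mice of the group lay between 0.684 and 1.18 TPM. On log2(TPM + 1) its gap to the nearest mouse was 0.854 of the group's range, above Dixon's 95% critical value of 0.829 for 4 samples. Among the 27 groups of values examined, chance alone marks about 1 in 20.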

How the results depend on the processing

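Of 1206 alternative values of single-gene changes, 1144 kept their direction and side of the threshold, 28 lost and 7 gained a call, and 27 changed sign, 0 of them of a called gene. The count of 7 calls for injury in mutants was 3 with A8 names alone, 2 with M names alone and 4 to 7 when each mouse was left out in turn. The count was 0 to 3 for injury in the wild type and 0 to 2 for genotype in injured discs when each mouse was left out, and 1 for the latter with sample weights. It stayed at 0 for genotype in intact discs and for the interaction. Same-numbered mice did not deviate together (correlations -0.217 to 0.151, median -0.0279, 21 pairs, against a median of 0.00792 for 74 other pairs). With the replicate block 6 genes were called for injury in mutants, without Ccl8 (adjusted p 0.05348).

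The sign changed as follows, in uncalled genes. Ccl11 by genotype in injured discs was -0.16 with a pseudocount of 0.1, -0.10 with M names alone, -0.12 with voom and -0.19 to 0.68 with a mouse left out. For injury in the wild type Ccl11 ranged from -0.27 to 0.61 with a mouse left out. Ccl12 by genotype in injured discs, and its interaction, ranged from -0.026 to 1.12 that way. By genotype in intact discs, Ccl3 was -0.066 with sample weights and -0.0093 with the replicate block, Ccl5 was -0.30 with A8 names alone and Ccl8 -0.24 with M names alone. With a mouse left out, Ccl3 ranged from -0.20 to 0.53, Ccl5 from -0.049 to 0.53, Ccl8 from -0.014 to 0.52 and Ccl9 from -0.40 to 0.055 in that comparison. In the interaction, Ccl3 was -0.37 with M names alone, and Ccl5 was -0.36 with M names alone, -0.045 with voom and -0.24 to 0.51 with a mouse left out. The cause was not tested.

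Over all genes, the count of calls was 725 to 8559 for injury in mutants (7438 reported), 2 to 452 for injury in the wild type (28), 2 to 2253 for genotype in injured discs (222), 1 to 8 in intact discs (4) and 0 to 15 for the interaction (0). Fits of the interaction with only the groups compared, and of the wild type within A8 or M names, give no separate value. Depth limits Ccl11, Ccl12 and Ccl20 most, which rest on 0 to 32, 0 to 22 and 0 to 6 implied reads. It also limits Ccl5, which rests on 1 to 37. The folds of Ccl2, Ccl7, Ccl3 and Ccl9 in mutants rest on few intact reads as well. Ccl4 and Ccl8 had at most 2 implied reads in any intact library.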
